A study of Homo sapiens with 4 samples.

Results

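The genes described here make cholesterol and fatty acids. They are 30 genes named by a fixed list: 17 enzymes of sterol synthesis from HMGCS1 to DHCR7, 4 genes of sterol control and transport (INSIG1, SREBF1, SREBF2 and STARD4), and 9 genes of fatty acid and lipid synthesis. A gene was read through the probesets that the platform's annotation assigns to its symbol alone, with MSMO1 listed as SC4MOL and SC5D as SC5DL. Of the 30 genes, 29 were measured and HSD17B7 was not analysed here. The 29 genes had 506 probesets, of 232479 in the series, and 495 of them passed a filter on dim signal, so that the genes made up 29 of 15719 genes tested.

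RNA of T-47D, a luminal breast cancer cell line that carries hormone receptors, was hybridised to exon arrays. For 2 arrays the cells had received the artificial microRNA p-27-5p as a mimic at 200 nM, and for the other 2 a pre-miR negative control. All 4 samples were transfected with TurboFect in DMEM with fetal bovine serum. The time from transfection to RNA extraction, a dose for the control and the sequence of the mimic were not given in the sources used here. The study's design text speaks of paired samples with 2 repeats, without saying what a pair shared. Since nothing says that replicates were grown separately, the p-values measure only how far these arrays lie apart, and that spread may be technical.

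Cholesterol is built from acetyl-CoA through mevalonate, isoprenoids and squalene, and fatty acids are built from the same precursor by acetyl-CoA carboxylase and fatty acid synthase. Both routes are switched on by the SREBP transcription factors, SREBP2 (gene SREBF2) mainly for sterols and SREBP1 (gene SREBF1) mainly for fatty acids. When sterols are plentiful, INSIG proteins hold SREBP and its escort SCAP in the endoplasmic reticulum, and the target genes fall quiet. Fatty acid synthase is often abundant in breast cancer.

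Most of these genes had lower levels in mimic arrays than in control arrays, by a modest amount. A level is the mean log2 value of a gene's probesets, and a change is mimic minus control on that log2 scale. The mimic arrays were both under the control arrays, with no overlap, for 22 of the 29 genes, against 29.5% of all genes tested. They were both over them for 4 genes (STARD4, LPIN1, HMGCS1 and ACLY), against 20.5% of all genes. The change was below 0 for 24 of the 29, against 49.7% of all genes. IDI1, MSMO1 and SC5D had overlapping arrays. The median change over the 29 genes was -0.40, and over all genes tested it was 0.0024. In bulk RNA, fewer expressing cells and less RNA per cell cannot be told apart.

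Only 1 gene, the fatty acid elongase ELOVL6, passed the threshold (limma, Benjamini-Hochberg adjusted over all genes, 0.05), against 0.789% of all genes that passed in that direction and 2.31% in either. No member passed in the other direction, against 1.52% of all genes. At an unadjusted p under 0.05, 16 of the 29 members were lower, against 12.8% of all genes, and 2 (STARD4 and LPIN1) were higher, against 7.65%. The 28 members that did not pass are given below by their values, with no claim that single genes among them changed. Brighter genes were more often lower on these arrays in general. Among the 8310 genes whose mean level was at or above that of LPIN1, the lowest of the members at 6.41, the change was below 0 for 64.2%, the mimic arrays were both lower without overlap for 44.0% and both higher for 18.5%, and the median change was -0.10. Of these brighter genes 2.65% passed the threshold, 1.18% lower and 1.47% higher, while an unadjusted p under 0.05 was reached by 19.7% in the lower direction and 6.68% in the higher one.

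**Figure D1:**
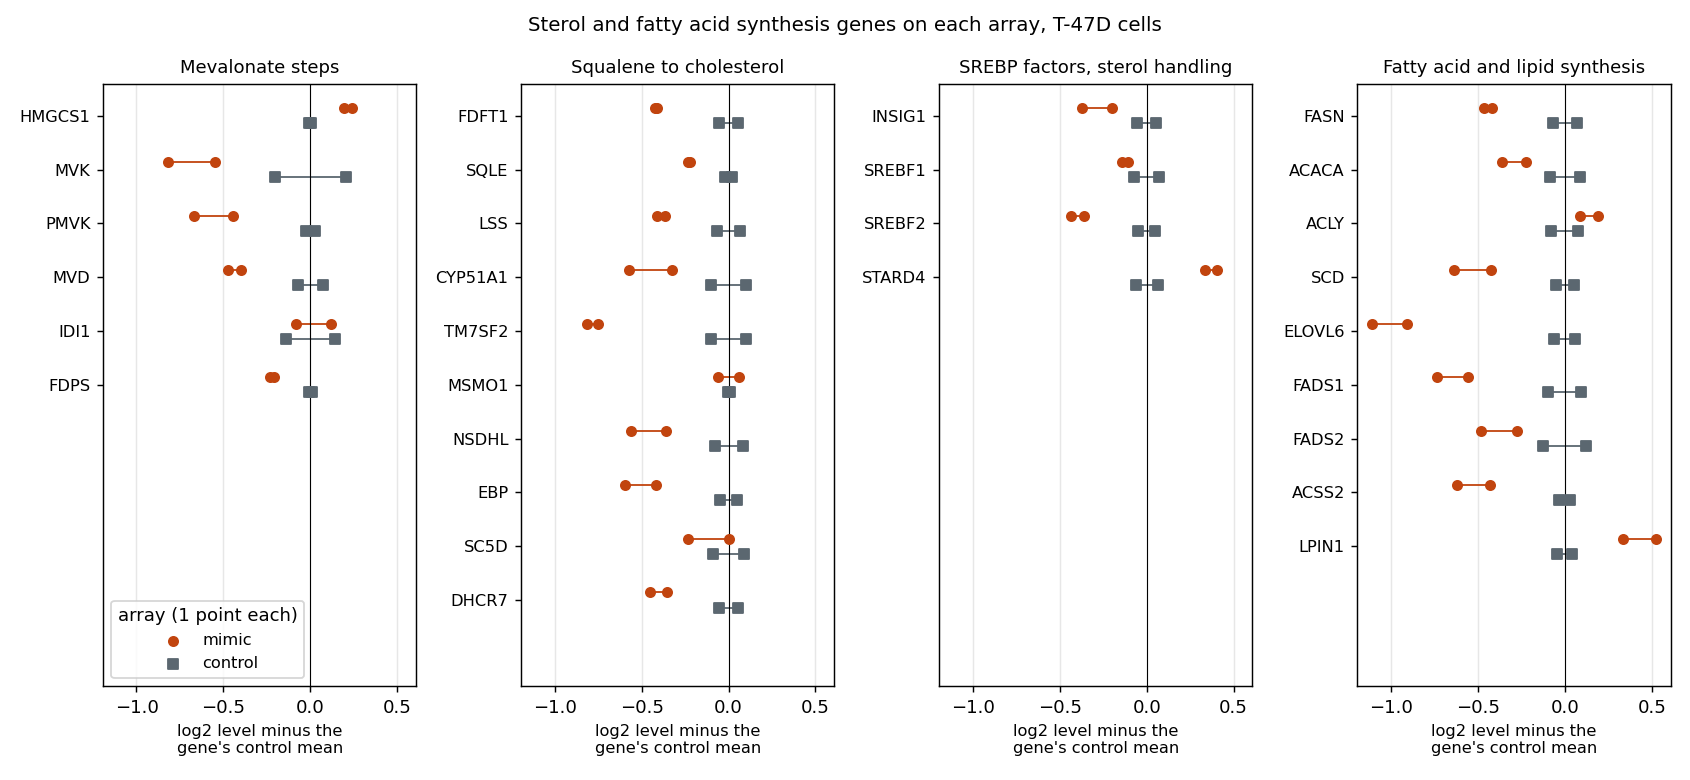
Each point is 1 array's log2 level of a gene minus that gene's mean over the 2 control arrays (horizontal axis, log2 units), with mimic arrays as circles above control arrays as squares, and genes in pathway order in 4 panels. The mimic points lie left of both control points for 22 of the 29 genes, with ELOVL6 the farthest left, and right of them for HMGCS1, STARD4, ACLY and LPIN1.

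Across the series, 363 of 15719 genes passed the threshold, 124 lower and 239 higher. The array values correlated with r = 0.985 between mimic arrays, r = 0.984 between control arrays and r from 0.966 to 0.973 across groups. The luminal markers had levels from 6.54 to 12.14 in mimic arrays and from 6.43 to 12.40 in control arrays over 12 genes. All but TFF1 lay above the ranges of the background genes given next. The control mean of TFF1, 6.43, was within that of control arrays. Background was read from 12 measured genes of liver and neurons, with levels from 4.67 to 6.43 in mimic arrays and from 4.37 to 6.85 in control arrays, and a median change of 0.24. SYT1 was the highest of them in both groups, and the next were APOA2 in mimic arrays (6.35) and SLC17A7 in control arrays (5.71). The 7 adipocyte markers measured had levels from 5.01 to 5.73 in mimic arrays and from 4.87 to 5.56 in control arrays, and the 6 leukocyte markers from 4.81 to 6.96 in mimic arrays and from 4.52 to 7.38 in control arrays. The 8 fibroblast markers ranged from 4.71 to 6.95 in mimic arrays and from 4.19 to 6.83 in control arrays, with a median change of 0.27. Limma called 0 of the markers, and at an unadjusted p under 0.05 there were 2 fibroblast, 1 adipocyte, 1 leukocyte and 3 background genes, all higher, and 3 luminal genes, all lower. Of all genes, 12.8% were lower and 7.65% higher at that unadjusted level. The part of these lists in the results was not tested.

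The early steps of sterol synthesis were mixed. HMGCS1, the cytosolic synthase that makes HMG-CoA, had 9.43 and 9.39 in mimic arrays, against 9.20 and 9.19 in control arrays. Its mimic arrays were thus the higher ones, with a change of 0.22 (SE 0.12, adjusted p = 0.373). Mevalonate kinase, MVK, had 7.43 and 7.70 in mimic arrays, against 8.04 and 8.45 in control arrays, a change of -0.68 (SE 0.19) with an adjusted p of 0.138 and a 95% confidence interval from -1.16 to -0.20. The control arrays of MVK differed by more than those of any other sterol enzyme measured, and still did not reach down to the mimic arrays. PMVK, the next kinase of the route, had 8.06 and 7.83 in mimic arrays, against 8.48 and 8.53 in control arrays, and its change was -0.56 (SE 0.14, adjusted p = 0.114).

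MVD, the decarboxylase that makes isopentenyl diphosphate, had 6.98 and 6.91 in mimic arrays, against 7.31 and 7.45 in control arrays. Its arrays did not overlap, at a change of -0.44 (SE 0.13, adjusted p = 0.148). The isomerase IDI1 had 9.16 and 9.36 in mimic arrays, against 9.10 and 9.38 in control arrays. The arrays of IDI1 overlapped fully, and the 95% confidence interval of its change of 0.02 ran from -0.38 to 0.42. FDPS, which makes farnesyl diphosphate and was read by 3 probesets, had 8.20 and 8.18 in mimic arrays, against 8.40 and 8.41 in control arrays. The change of -0.22 was wide beside the gap within each group, with an adjusted p of 0.366 from limma, which draws the variance of a gene towards that of all genes. Of the 6 genes of these mevalonate steps, 3 were lower at an unadjusted p under 0.05, against 12.8% of all genes. Among genes at or above the lowest member level that share was 19.7%. In the higher direction there were 0 of the 6, against 7.65% of all genes, and the median change of the 6 genes was -0.33.

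Of the 10 measured genes of the later steps, from squalene to cholesterol, 8 had lower mimic arrays without overlap, and MSMO1 and SC5D overlapped. Such arrays were found for 29.5% of all genes and 44.0% of genes at or above the lowest member level. The median change was -0.41, limma called 0 of the 10, and 7 had an unadjusted p under 0.05, all lower. For that p in the lower direction the shares were 12.8% and 19.7%. The largest decrease among them was that of TM7SF2, a sterol C14 reductase of the endoplasmic reticulum, with 8.40 and 8.46 in mimic arrays, against 9.11 and 9.31 in control arrays. Its change of -0.78 (SE 0.13) is a 1.72-fold lower level, with a 95% confidence interval from -1.12 to -0.45, and the adjusted p of 0.0579 missed the threshold. EBP, a sterol isomerase that acts later, had 9.26 and 9.43 in mimic arrays, against 9.81 and 9.90 in control arrays, at -0.51 (SE 0.13, adjusted p = 0.124).

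The entry to this stretch was lower by less than TM7SF2 and EBP, and the differences between genes were not tested. FDFT1, squalene synthase, had 10.47 and 10.48 in mimic arrays, against 10.84 and 10.94 in control arrays, a change of -0.42 (SE 0.12, adjusted p = 0.148). SQLE, squalene epoxidase and a rate-setting step of the route, had 9.91 and 9.92 in mimic arrays, against 10.17 and 10.12 in control arrays. Its change of -0.23 had a 95% confidence interval from -0.52 to 0.07. LSS, which closes the sterol rings, had 8.71 and 8.75 in mimic arrays, against 9.05 and 9.19 in control arrays, and a change of -0.39 (SE 0.12, adjusted p = 0.174). None of these 3 genes had overlapping arrays.

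Among the demethylating enzymes, CYP51A1, the lanosterol demethylase, had 7.16 and 6.91 in mimic arrays, against 7.59 and 7.38 in control arrays. This change of -0.45 rests on 2 probesets, 1 of them at a mean level of 4.73. NSDHL, which acts with MSMO1 at carbon 4 of the sterol ring, had 7.27 and 7.47 in mimic arrays, against 7.75 and 7.91 in control arrays, at -0.46 (SE 0.14, adjusted p = 0.162). Its partner MSMO1 had 9.67 and 9.79 in mimic arrays, against 9.72 and 9.74 in control arrays. The MSMO1 arrays overlapped, with a change close to 0 (-0.0016, 95% confidence interval -0.31 to 0.31), while those of NSDHL did not. The difference between the genes was not tested.

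At the end of the route, DHCR7, the last reductase, had 10.57 and 10.66 in mimic arrays, against 10.96 and 11.07 in control arrays. Its change was -0.40 (SE 0.12, adjusted p = 0.167), with no overlap. SC5D, the desaturase 1 step earlier, had 9.12 and 9.35 in mimic arrays, against 9.26 and 9.44 in control arrays, and these arrays overlapped, at a change of -0.12 (95% confidence interval -0.49 to 0.26). Over all 16 sterol enzymes the median change was -0.41. The mimic arrays lay below both control arrays for 12 of them, against 29.5% of all genes and 44.0% of genes at or above the lowest member level. They lay above for 1, HMGCS1. Limma called 0 of the 16, and 10 had an unadjusted p under 0.05, all lower, against 12.8% and 19.7% in that direction.

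The regulatory and transport genes were divided. SREBF2, which encodes the sterol-directed SREBP2, had 8.59 and 8.66 in mimic arrays, against 8.97 and 9.07 in control arrays, a change of -0.40 (SE 0.12, adjusted p = 0.166). SREBF1 had 8.29 and 8.32 in mimic arrays, against 8.35 and 8.50 in control arrays. Its change of -0.12 had a 95% confidence interval from -0.44 to 0.19, which overlaps that of SREBF2, from -0.71 to -0.09, and the difference between the genes was not tested. INSIG1, the feedback brake and itself an SREBP target, had 8.17 and 8.0 in mimic arrays, against 8.31 and 8.42 in control arrays, at -0.28 (SE 0.13, adjusted p = 0.31). STARD4, which carries cholesterol between membranes, was the exception. It had 8.59 and 8.52 in mimic arrays, against 8.25 and 8.13 in control arrays, so that both mimic arrays were higher, at 0.37 (SE 0.12, adjusted p = 0.191). Limma called 0 of these 4 genes, and their median change was -0.20. Without overlap, 3 had lower mimic arrays and 1 higher ones, against 29.5% and 20.5% of all genes. Among genes at or above the lowest member level these shares were 44.0% and 18.5%.

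In the fatty acid branch, ELOVL6 fell. ELOVL6 extends palmitate to stearate, and its level was 6.09 and 5.88 in mimic arrays, against 7.05 and 6.93 in control arrays. The groups were far apart beside the spread within each of them, at 5.98 ± 0.14 in mimic arrays and 6.99 ± 0.09 in control arrays (SD, n = 2 each). The change of -1.01 (SE 0.14, 95% confidence interval -1.36 to -0.66) had an adjusted p of 0.0345 (limma). The adjusted p ranged from 0.00152 to 0.167 over 15 other settings and stayed under the threshold in 10. It was 0.097 without mimic replicate 1 and 0.167 without mimic replicate 2, with changes of -1.11 and -0.91. The mimic level of ELOVL6 lies within the range of liver and neuron genes that mark background here, and no fold is given for that reason.

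The fatty acid desaturases came next. FADS1, the delta-5 desaturase of polyunsaturated fatty acids, had 7.77 and 7.94 in mimic arrays, against 8.41 and 8.60 in control arrays, a change of -0.65 (SE 0.14) whose adjusted p of 0.0935 missed the threshold. FADS2, the delta-6 desaturase encoded beside it, had 6.93 and 7.14 in mimic arrays, against 7.29 and 7.54 in control arrays, at -0.38 (SE 0.15, adjusted p = 0.253). SCD, which puts the double bond into stearate to make oleate, had 11.35 and 11.56 in mimic arrays, against 11.93 and 12.03 in control arrays. No desaturase had overlapping arrays, and the change of SCD was -0.53 (SE 0.14, adjusted p = 0.124).

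The enzymes that supply and join acetyl units were mixed. ACSS2, which makes acetyl-CoA from acetate, had 7.58 and 7.77 in mimic arrays, against 8.17 and 8.23 in control arrays, at -0.53 (SE 0.13, adjusted p = 0.116). ACLY, which makes acetyl-CoA from citrate, had 11.12 and 11.22 in mimic arrays, against 10.96 and 11.11 in control arrays. ACLY was thus marginally higher, by 0.14, with a 95% confidence interval from -0.19 to 0.47. ACACA, acetyl-CoA carboxylase, had 8.62 and 8.76 in mimic arrays, against 8.90 and 9.07 in control arrays, at -0.29 (SE 0.14, adjusted p = 0.309). FASN, fatty acid synthase, had 10.00 and 10.04 in mimic arrays, against 10.39 and 10.53 in control arrays. The change of FASN was -0.44 (SE 0.12, adjusted p = 0.142), a 1.36-fold lower level with no overlap.

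LPIN1, a phosphatidate phosphatase that makes diacylglycerol and also acts in the nucleus, went the other way. It had 6.72 and 6.53 in mimic arrays, against 6.15 and 6.24 in control arrays, a change of 0.43 (SE 0.13, adjusted p = 0.166). The control mean of LPIN1, 6.20, lies within the range of background genes in control arrays, and its mimic mean, 6.63, lies just above their range in mimic arrays. Of the background genes in control arrays, only SYT1 is above that control mean. Of the 9 fatty acid genes, 1 fell, against 0.789% of all genes and 1.18% of genes at or above the lowest member level. The other 8 did not pass. At an unadjusted p under 0.05, 5 were lower and 1 higher, against 12.8% and 7.65% of all genes. Among genes at or above the lowest member level these shares were 19.7% and 6.68%. The median change of the 9 genes was -0.44.

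The mean values of the sterol and the fatty acid branch were lower in mimic arrays by like amounts. Averaged over its 16 enzymes and set against the control mean, the sterol branch stood at -0.36 and -0.31 in mimic arrays, and at -0.05 and 0.05 in control arrays. The fatty acid branch, averaged over 9 genes, stood at -0.40 and -0.32 in mimic arrays, and at -0.06 and 0.06 in control arrays. In both branches mimic replicate 1 was the lower mimic array and control replicate 1 the lower control array. The mean change of the fatty acid branch less that of the sterol branch was -0.024, from a branch gap of -0.27 and -0.25 in mimic arrays and of -0.24 and -0.23 in control arrays. An exact permutation test of 2 arrays against 2 cannot go below a two-sided p of 0.333, and no p is given for the branch means. The changes ran from -1.01 to 0.43 in the fatty acid branch, against -0.78 to 0.22 in the sterol branch. The ends of the fatty acid range are ELOVL6 and LPIN1, the dimmest members, at mean levels of 6.49 and 6.41. The other fatty acid genes ran from -0.65 (FADS1) to 0.14 (ACLY).

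**Figure D2:**
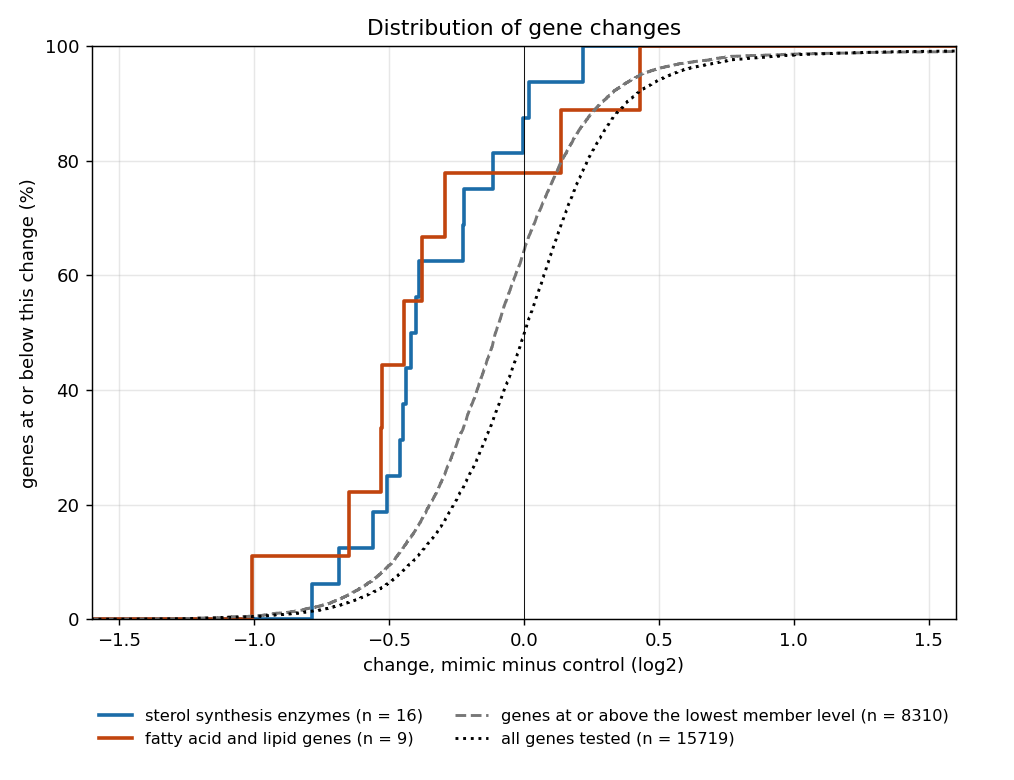
The curves give the share of genes (vertical axis, %) at or below each change, mimic minus control (horizontal axis, log2), for 16 sterol enzymes, 9 fatty acid genes, the 8310 genes at or above the lowest member level and all 15719 genes tested. The sterol and fatty acid curves lie left of both others over most of their length, with the fatty acid curve crossing them near its top, and have medians of -0.41 and -0.44, against -0.10 and 0.0024.

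Single probesets, each reading about 1 exon or part of one, bear on whether a gene's change rests on a few of them. Limma called 0 of the 495 probesets, against 0.918% of all probesets (0.0946% lower and 0.823% higher), and 1, of FADS1, had an adjusted p under 0.1. At an unadjusted p under 0.05, 9.01% of all probesets were lower and 6.31% higher. The change was below 0 on 375 of the 495, against 53.5% of all probesets. The mimic arrays were both lower without overlap on 292, against 27.1%, and both higher on 59, against 20.7%. Brighter probesets were more often lower in general. Both mimic arrays were lower without overlap on 62 of 140 member probesets with a mean level below 8. It was 132 of 194 at 8 to 10 and 98 of 161 at 10 or above. Among all probesets the shares in these bands were 22.8%, 32.5% and 36.8%. The probesets of 1 gene share its transcripts and are not independent.

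Several genes had lower values on most of their probesets. FASN had both mimic arrays lower, with no overlap, on 45 of its 47 probesets, SREBF2 on 22 of 25, LSS on 20 of 25, FDFT1 on 15 of 18, TM7SF2 on 15 of 16 and DHCR7 on 12 of 12. ELOVL6 had a change below 0 on all 6 of its probesets, from -1.42 to -0.65, and 5 of them did not overlap. In the other direction, STARD4 was above 0 on all 11 probesets and did not overlap on 9, and LPIN1 was above 0 on 23 of 24 and did not overlap on 13.

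Other genes were uneven. SREBF1 had mimic arrays below on 7 of 25 probesets and above on 1, with the other 17 overlapping. MSMO1 had 2 probesets below and 2 above, of 7, and IDI1 had 2 below and 5 above, of 14. HMGCS1 had 9 of 17 above and 1 below. MVK had 10 of 11 probesets below, and its brightest one, at a mean level of 10.13, had a change of 0.015. The brightest probeset of SQLE, at 11.46, had 0.28, while 10 of the 14 probesets of SQLE lay below. Reading each gene by its brightest probeset alone gave a median change of -0.17 for the sterol enzymes and -0.29 for the fatty acid genes. The median over all genes was then 0.05. That reading left 18 of the 29 members with mimic arrays below both control arrays, against 3327 of all 15719 genes. It put 5 members above, against 4170 of all genes. ELOVL6 then had -1.42 with an adjusted p of 0.158.

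**Figure D3:**
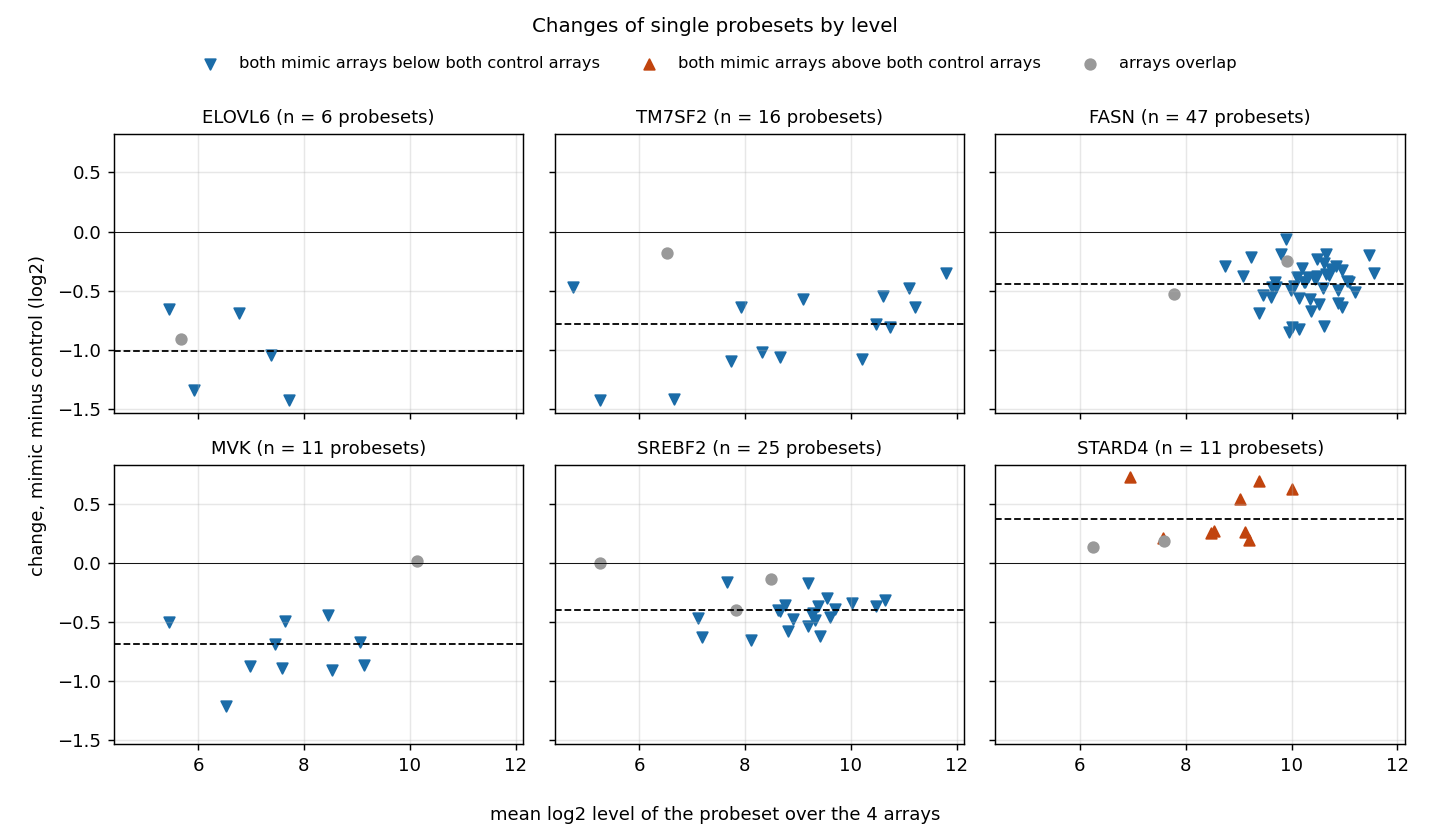
Each symbol is 1 probeset of the named gene, at its mean log2 level over the 4 arrays (horizontal axis) and its change, mimic minus control (vertical axis, log2). The dashed line is the gene's change and the symbol shape says whether the arrays overlap. FASN and SREBF2 are below 0 across their probesets, the brightest probeset of MVK sits at 0.015, and all 11 probesets of STARD4 are above 0.

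SREBP factors act at promoters together with the CCAAT-binding factor NF-Y and with Sp1, which binds GC boxes. The promoters of SREBF2, MVK and ELOVL6 are shown because they span the range of motif matches among genes that were lower. SREBF2 has an exact match to a sterol regulatory element core with a CCAAT box, MVK has repeated CCAAT boxes, and ELOVL6 has no match to either. Variants of the core were not searched, so a window without a match may still hold such an element. Each is the 250 bases before the RefSeq start site on GRCh38.p14, read on the strand of the gene, at chr22:41832855-41833104 (plus strand) for SREBF2, chr12:109573544-109573793 (plus strand) for MVK and chr4:110198616-110198865 (minus strand) for ELOVL6. Capitals mark the sterol regulatory element core TCACNCCAC and CCAAT (read as ATTGG on the other strand) in the first and second, and the GC box GGGCGG in the third.
SREBF2: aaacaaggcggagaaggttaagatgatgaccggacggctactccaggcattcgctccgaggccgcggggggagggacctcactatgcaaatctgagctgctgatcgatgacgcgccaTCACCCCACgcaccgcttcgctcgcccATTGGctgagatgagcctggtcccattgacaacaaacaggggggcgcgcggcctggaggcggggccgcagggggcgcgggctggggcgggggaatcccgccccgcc
MVK: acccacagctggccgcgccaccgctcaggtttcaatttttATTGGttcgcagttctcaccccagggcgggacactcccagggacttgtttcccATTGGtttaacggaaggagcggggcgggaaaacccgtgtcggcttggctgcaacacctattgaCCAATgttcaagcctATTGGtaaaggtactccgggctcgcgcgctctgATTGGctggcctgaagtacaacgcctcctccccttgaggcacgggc
ELOVL6: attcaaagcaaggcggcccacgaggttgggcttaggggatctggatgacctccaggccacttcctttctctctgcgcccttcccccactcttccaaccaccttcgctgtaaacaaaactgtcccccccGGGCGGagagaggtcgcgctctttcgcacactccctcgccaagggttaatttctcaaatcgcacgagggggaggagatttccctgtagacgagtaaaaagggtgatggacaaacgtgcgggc

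The SREBF2 window holds the element core once, 133 bases before the start, and 1 CCAAT box, MVK holds 5 CCAAT boxes, and ELOVL6 holds no CCAAT. SREBF2 holds 2 GC boxes, MVK 2 and ELOVL6 1, and only that of ELOVL6 is in capitals. A promoter was found for 26 of the 29 measured members, and genes with several listed starts were counted once if any window had the motif, on both strands, each motif on its own whether or not it overlapped another. CCAAT was in the promoters of 19 of the 26, 12 of 14 sterol enzymes and 4 of 8 fatty acid genes. It was in 37.0% of all 27305 genes with a listed promoter, and in 32.0% of all promoters of that length. Those 27305 genes are not the set tested on the arrays, for which the shares were not counted. The core TCACNCCAC was in SREBF2 only, against 1.09% of the 27305 genes. GGGCGG was in 25 of the 26, against 46.2% of them, and CACGTG in SC5D and INSIG1, against 7.73%. Of the members with higher mimic arrays, HMGCS1, STARD4 and ACLY hold CCAAT and LPIN1 does not, and of those with overlapping arrays, IDI1, MSMO1 and SC5D all hold it. The others without it are ELOVL6, FADS1, FADS2, SREBF1, PMVK and CYP51A1, all with lower mimic arrays. A relation of the motif to the change was not tested. A match is a description of the letters in the window.

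The escort, brake and proteases of SREBP had values on the lower side in mimic arrays. Of SCAP, INSIG2 and the site proteases MBTPS1 and MBTPS2, limma called 0 of 4, and the median change was -0.37. At an unadjusted p under 0.05, 2 of the 4 were lower, against 12.8% of all genes, and 0 higher. SCAP, the sterol-sensing escort of SREBP, had 7.90 and 7.79 in mimic arrays, against 8.34 and 8.37 in control arrays, a change of -0.52 (SE 0.12, adjusted p = 0.106). INSIG2, the second INSIG brake, had 7.55 and 7.22 in mimic arrays, against 7.94 and 7.98 in control arrays, at -0.58 (SE 0.16, adjusted p = 0.132). MBTPS2, the site-2 protease that releases SREBP, had a change of -0.23 (adjusted p = 0.356).

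ABCA1, the pump that loads cellular cholesterol onto apolipoprotein A-I and is a target of the oxysterol receptors LXR, passed the threshold in the higher direction. Its level was 5.60 and 5.75 in mimic arrays, against 4.87 and 4.69 in control arrays, a change of 0.90 (SE 0.14, limma adjusted p = 0.0451). Both groups lie within the range of the background genes, whose own median change was 0.24, and no fold is given. The adjusted p of ABCA1 ran from 0.0051 to 0.388 over 15 other settings and stayed under the threshold in 8, with 0.159 without mimic replicate 1 and 0.211 without mimic replicate 2. These settings too include the main fit read at 0.1. ABCA1 was the 1 gene called of 13 in the list of oxysterols, LXR and sterol transport, against 1.52% of all genes in that direction. The median change of the list was -0.06. CH25H, which makes 25-hydroxycholesterol and is known as an interferon-stimulated gene, was read by 1 probeset at the background level, with 4.52 and 4.52 in mimic arrays, against 4.62 and 4.03 in control arrays, and no difference was detectable there.

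Among other enzymes of fatty acid and glycerolipid synthesis, 2 of 20 measured genes fell, against 0.789% of all genes, and both were at dim levels. THRSP, known as Spot 14 and linked to lipogenesis, had 5.32 and 5.42 in mimic arrays, against 6.29 and 6.55 in control arrays, a change of -1.05 (SE 0.14, adjusted p = 0.035). ELOVL2, an elongase of long polyunsaturated chains, had 5.71 and 5.62 in mimic arrays, against 6.67 and 6.62 in control arrays, a change of -0.98 (SE 0.12, adjusted p = 0.0258). Neither overlapped, and both groups of both genes lie within the background range. In control arrays, only SYT1 of the background genes is above these 2 genes. Without mimic replicate 1 the adjusted p was 0.164 for THRSP and 0.122 for ELOVL2, and without mimic replicate 2 it was 0.112 and 0.15. THRSP also missed the threshold with only the probesets above the table's median (0.0675) and with its brightest probeset (0.204), and ELOVL2 with its brightest probeset (0.115). In the list as a whole the median change was -0.13, with 7 genes lower and 1 higher at an unadjusted p under 0.05. Of all genes, 12.8% were lower and 7.65% higher at that level.

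Genes that burn fatty acids also had values on the lower side in mimic arrays. All 13 measured genes of fatty acid oxidation had a change below 0, against 49.7% of all genes. In 11 of them the mimic arrays were both lower without overlap, against 29.5%. At an unadjusted p under 0.05, 6 were lower, against 12.8%. Among all genes at or above the lowest member level these shares were 64.2%, 44.0% and 19.7%, and some of the 13, such as PPARA, are dimmer than that. Limma called 0 of the 13, and the median change was -0.30. ACADS, a short-chain acyl-CoA dehydrogenase, had -0.73 (adjusted p = 0.061), HADHA, of the trifunctional protein, -0.60 (adjusted p = 0.104), and ECI1, an isomerase of unsaturated chains, -0.50 (adjusted p = 0.123). Of the 9 other isoprenoid and sterol enzymes, limma called 0. At an unadjusted p under 0.05, 3 were lower and 1 higher, against 12.8% and 7.65% of all genes. The median change over the list was -0.06. PDSS2, of the coenzyme Q side chain, had -0.82 (adjusted p = 0.0715), ACAT2, which joins acetyl-CoA units ahead of HMGCS1, -0.53 (adjusted p = 0.13), and FNTA, a protein prenyltransferase subunit, 0.40 (adjusted p = 0.16).

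**Figure D4:**
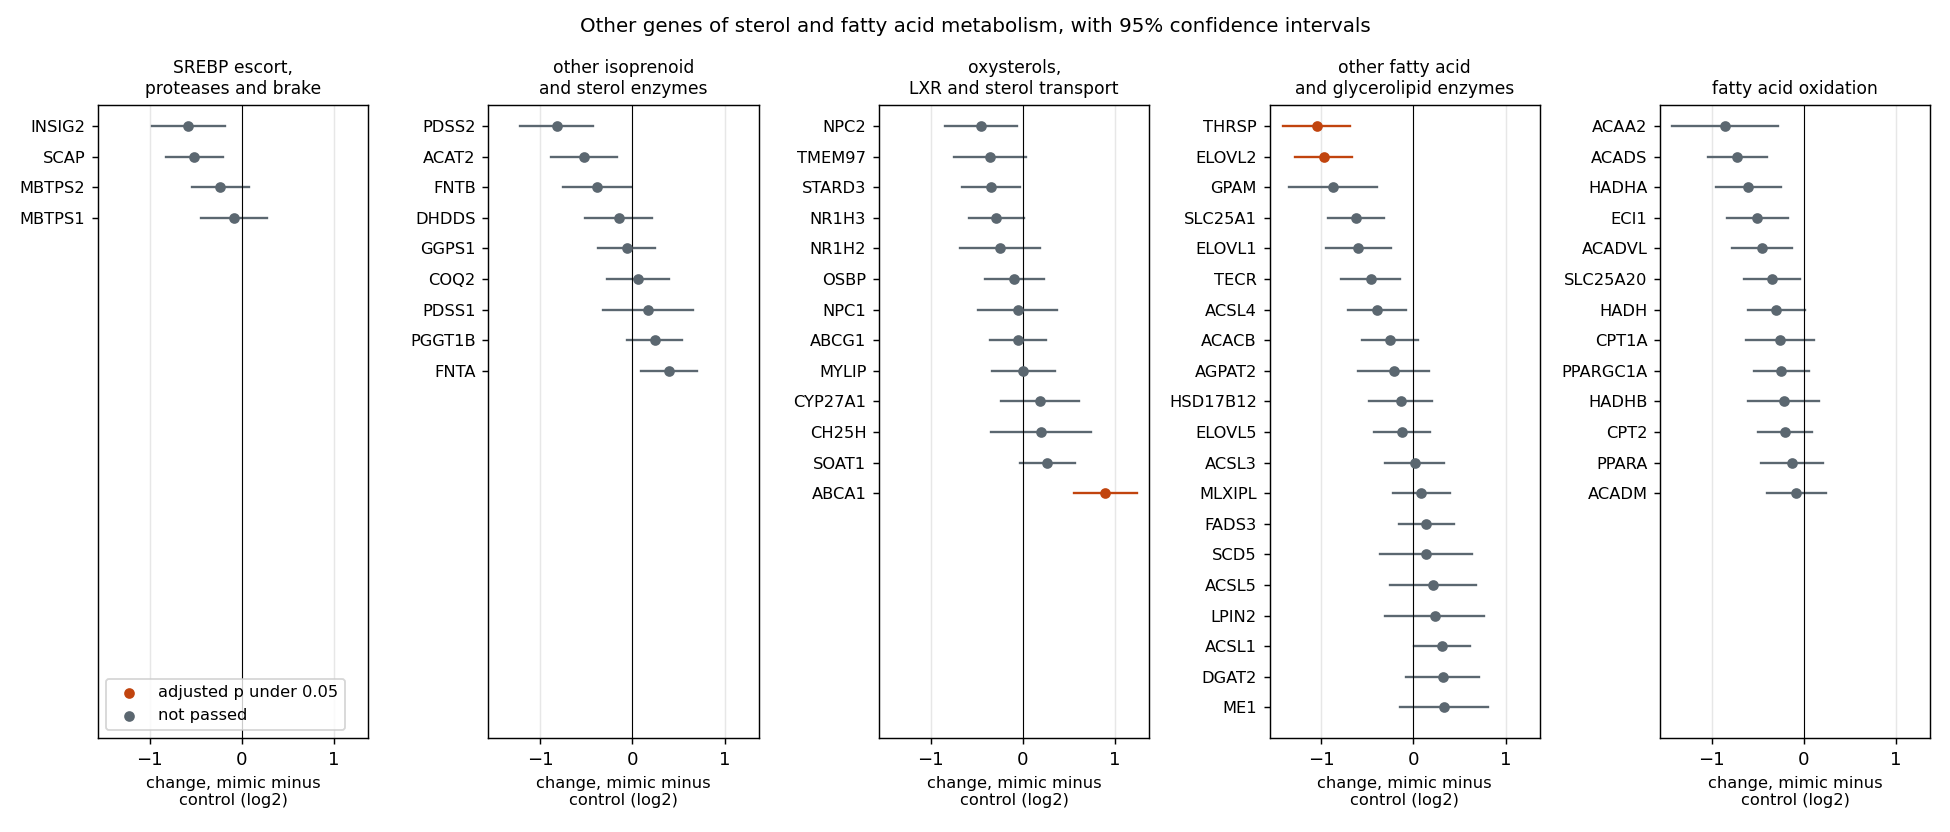
Each point is the change of a gene, mimic minus control (horizontal axis, log2), with limma's 95% confidence interval, in 5 lists of genes outside the 30. ABCA1, THRSP and ELOVL2 are the 3 of 59 measured genes with an adjusted p under 0.05, and all 13 genes of fatty acid oxidation lie left of 0.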

How the data were processed

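The authors deposited log2 values for exon-level probesets, used here as given. Per the submitters' processing notes, Partek, RMA and the build hg18 were involved, but neither versions nor the order of steps are given there. The 4 arrays do not share 1 distribution (interquartile range 4.18 and 4.32 in mimic arrays, 4.25 and 4.52 in control arrays). Probesets took their symbols from GEO's annotation of the platform, updated through RefSeq. Of 232479 probesets, 216780 carried 1 symbol, 2335 several and 13364 none here, and only the first kind was used.

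A gene's level is the mean of its probesets that averaged 4.08 or more, the 25th percentile of the table. Limma 3.58.1 (R 4.3.3, lmFit and eBayes, two-sided, 5.29 total degrees of freedom) tested mimic minus control on all 15719 genes and on all 163774 probesets, adjusted by Benjamini-Hochberg, at 0.05. The fit was tested on simulated data. SD is over the 2 arrays of a group, SE is limma's, and the number of arrays limits the precision. The members and gene lists were chosen with earlier results of these data known. Named are all 30 members, the genes past the threshold or, failing those, up to 3 with the smallest p of each other list, and ABCA1 and CH25H. Alternatives were the replicate block, 3 normalizations, 2 filters, 2 ways to read a gene, robust hyperparameters, an intensity trend, a threshold of 0.1 and each array left out. Promoters came from RefSeq, GRCh38.p14.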

Additional observations from a re-analysis of the deposited data

How the results depend on the processing

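The count of members past the threshold in the lower direction, 1 as reported, was 2 with the replicate block, 2 with quantile and 2 with cyclic loess normalization, 0 with equal array medians, 0 with the median of probesets, 0 with the brightest probeset, 7 with no filter on dim probesets, 13 with an intensity trend, 3 at an adjusted p under 0.1, and 0 to 4 without 1 replicate, and 0 members passed in the higher direction under any of these. The replicate numbers were tried as a block because the labels share them, though they do not say what a number stands for, and with 2 pairs the deviations of same-numbered arrays correlated at 0.435. All genes called, 363 as reported, numbered 498 with the replicate block, 1433 with no filter, 122 with the brightest probeset, 1594 with the intensity trend, 979 at 0.1, and 172 (without mimic replicate 1) to 1691 (without control replicate 1) with 1 replicate left out. The other pathway genes called, 3 as reported, numbered 4 with the replicate block, 14 with no filter, 1 with probesets above the table's median, 0 with the brightest probeset, 17 with the intensity trend, 7 at 0.1, and 0 to 10 without 1 replicate. Members at an unadjusted p under 0.05 were 16 lower and 2 higher as reported, 10 and 1 with the median of probesets, 2 and 1 with the brightest probeset, and 5 to 16 lower and 0 to 1 higher without 1 replicate, the lowest of these lower counts without mimic replicate 1. The shares of all genes at that unadjusted p were not counted under the other settings. At the adjusted threshold, all genes called were 534 with quantile normalization, 471 with cyclic loess, 309 with equal array medians and 247 with the median of probesets. The count of 22 members with lower mimic arrays was 20 with the median of probesets and 18 with the brightest probeset, and 22 under each other normalization and filter. Of all 15719 genes, 4641 were lower without overlap as reported, 4251 with the median of probesets and 3327 with the brightest probeset. They numbered 4620 with quantile normalization, 4470 with equal array medians and 4181 with cyclic loess. With no filter it was 4709 of 16543 genes, and with probesets above the table's median 4286 of 12377. The sterol median was -0.35 with cyclic loess and -0.17 with the brightest probeset, and the fatty acid median -0.29 with the brightest probeset and -0.51 to -0.37 without 1 replicate. Single member probesets called numbered 1 of 495 at 0.1, against 2777 of all 163774 probesets. With the intensity trend they numbered 21 of 495, against 4715 of all 163774.

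The sign of the change turned for MVK (0.015), SQLE (0.28), MSMO1 (0.30) and SC5D (0.18) with the brightest probeset, and for MSMO1 with quantile normalization (0.043), equal medians (0.017) and cyclic loess (0.069). Without 1 replicate, IDI1 ran from -0.12 to 0.16, MSMO1 from -0.063 to 0.060 and SC5D from -0.23 to 0.0024. No other member changed sign under these alternatives. The adjusted p of ELOVL6 missed the threshold with equal medians (0.0502), the median of probesets (0.0976) and the brightest probeset. TM7SF2 passed with the replicate block (0.0499), quantile normalization (0.0391), cyclic loess (0.046), no filter (0.00584) and the intensity trend (0.00412). It also passed at a threshold of 0.1 (0.0579). Without control replicate 1 the change of TM7SF2 was -0.88. ABCA1 missed the threshold with the replicate block (0.0554), equal medians (0.0597), probesets above the table's median (0.147), the median of probesets (0.0959) and the brightest probeset (0.388). The causes were not tested. The settings for counts at an unadjusted p, counts without overlap, other pathway genes and single probesets were added after seeing the data. Leaving out a replicate leaves a lone array assumed to vary like the other group.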
